A study of Homo sapiens with 9 samples.

Results

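Fatty acid binding, activation, oxidation in mitochondria and peroxisomes, and ketone body metabolism were followed as 1 set of 42 genes. The genes were chosen by symbol from that pathway, and the rule uses no measured value. The choice was made with earlier results of these data known. Of the 42 genes, 38 had a probe set annotated to that gene alone, each gene was read from its brightest such probe set, and 36 passed the filter on dim signals, among 13056 genes tested in all. The signals come from 9 Affymetrix arrays of HepG2, a cell line grown from a liver tumour, a hepatocellular carcinoma, that still makes many hepatocyte proteins. The arrays form 3 groups of 3, knockdown1 and knockdown2, in both of which HNF4alpha and HNF4gamma were targeted at the same time by siRNA, and a knockdown control. What sets knockdown1 apart from knockdown2, what the control received, and whether arrays of a group came from separate cultures is not in the labels. Each p-value therefore measures only the spread between arrays, and that spread may be technical.

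HNF4alpha and HNF4gamma are nuclear receptors that bind DNA at direct repeats and activate many genes of hepatocytes. In the liver, fatty acids are bound in the cytosol, joined to coenzyme A, passed through the carnitine shuttle into mitochondria and shortened there by beta-oxidation, while very long and branched chains are shortened in peroxisomes. The acetyl-CoA that is formed can leave the liver as ketone bodies, and much of this programme is switched on in fasting by PPARalpha, another nuclear receptor, which binds a direct repeat of the same kind.

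The promoters of 3 members are shown because they frame the results: FABP1 fell the most, CROT fell in both knockdowns and differed between them, and ACSL1 was the member called higher in both. Each run is the 250 bases before an annotated transcription start, 5′ to 3′ on the gene's strand, from RefSeq on GRCh38.p14. Capitals in FABP1 mark an AGGTCA element read on the opposite strand, 68 to 63 bases before the start.
FABP1, chr2:88128063-88128312, minus strand: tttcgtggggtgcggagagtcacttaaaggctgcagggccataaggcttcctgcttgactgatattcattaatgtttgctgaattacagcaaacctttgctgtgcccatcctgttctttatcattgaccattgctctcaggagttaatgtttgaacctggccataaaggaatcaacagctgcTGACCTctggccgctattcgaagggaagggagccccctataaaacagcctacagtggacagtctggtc
CROT, chr7:87345414-87345663, plus strand: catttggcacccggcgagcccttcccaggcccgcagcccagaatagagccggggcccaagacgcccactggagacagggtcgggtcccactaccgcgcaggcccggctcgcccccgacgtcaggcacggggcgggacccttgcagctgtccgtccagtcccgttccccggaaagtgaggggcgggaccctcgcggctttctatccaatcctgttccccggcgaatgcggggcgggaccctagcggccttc
ACSL1, chr4:184825969-184826218, minus strand, the first of 5 annotated windows: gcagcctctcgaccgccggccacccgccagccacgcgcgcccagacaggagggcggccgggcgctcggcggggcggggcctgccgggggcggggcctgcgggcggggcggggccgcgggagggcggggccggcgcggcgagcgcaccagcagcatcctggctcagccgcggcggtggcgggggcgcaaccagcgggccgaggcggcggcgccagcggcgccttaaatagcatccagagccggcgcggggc
Both strands of windows from 250 bases before to 50 after the start were searched for the HNF4 sequences CAAAGTCCA and CAAAGGTCA, for AGGTCA, and for the direct repeat DR1 (a pair of AGGTCA elements with 1 base between them), which contains AGGTCA. Of the 42 genes, 35 had a window, and they had 50 windows in all. CAAAGTCCA was in 0 of the 50 windows, against 0.384% of all 35116 promoter windows, CAAAGGTCA was in 0, against 0.407%, and DR1 was in 0, against 0.0228%. AGGTCA was in 2 of the 50, those of FABP1 and ACSL5, against 13.8% of all windows. FABP1 held a further AGGTCA just after its start, and that of ACSL5 lay 223 to 218 bases before the start. A match is a description of the letters and not a binding site, and letters absent from these windows say nothing of the receptors. The FABP1 run is 48.0% G and C, the CROT run 70.8% and the ACSL1 run 83.6%. The median was 64.4% over the members' windows and 58.0% over all windows. The ACSL1 run printed was the richest in G and C of the 50 member windows, and the further ACSL1 windows held 46.8% to 61.2%. HADHA and HADHB, which encode the subunits of the mitochondrial trifunctional protein, lie head to head, and their windows overlap by 194 of 300 bases.

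Signals are linear MAS5 intensities, scaled here to a common array median of 14.1, and fold changes are differences of log2(scaled signal + 1.41), which understates changes of dim genes. A gene was called where limma's adjusted p over all 13056 genes was under 0.05. HNF4G, which encodes HNF4gamma, read 14.4, 23.5 and 17.4 in knockdown1, 41.9, 24.4 and 28.6 in knockdown2, and 45.2, 47.9 and 44.9 in control. All 6 knockdown arrays lay below the controls, and the fall over both knockdowns was called at -0.92 (SE 0.24, limma adjusted p = 0.00345). HNF4G fell by 1.28 in knockdown1 (limma adjusted p = 0.000538) and was -0.56 in knockdown2, which was not called (limma adjusted p = 0.142). HNF4A was not analysed here, since no probe set was annotated to it alone. All 9 hepatocyte markers were tested and bright, with a summed signal of 31621 to 38241 in knockdown1, 35003 to 37529 in knockdown2 and 37359 to 45126 in control. Of these 9, TF, APOA1 and TTR fell over both knockdowns. The 7 proliferation markers were all called lower over both knockdowns and in knockdown1. In knockdown2 only MCM5, MKI67 and MCM2 were called lower, and the other 4 were not called. The summed signal of the 7 was 2559 to 3255 in knockdown1, 7046 to 7680 in knockdown2 and 7910 to 10192 in control. The part of these markers in the results below was not tested. Of 4 immune markers with a probe set, the means of PTPRC and CD3E lay below 14.1 in every group, LYZ read 3005, 3714 and 3325 in knockdown1, knockdown2 and control, and CD14 fell, with 2.11, 4.02 and 23.4 in these groups. Of 4 endothelial markers, VWF, CDH5 and KDR lay below 14.1 in every group and PECAM1 rose. Of 6 stromal markers only ACTA2 was called, and it rose. Among the controls, replicate 3 gave the highest scaled signal for 27 of the 36 tested members and replicate 2 the lowest for 32. Their scale factors were 1.15 and 0.904. With signals as deposited, replicate 3 was the highest for 23 and replicate 2 the lowest for 18, so part of this order came with the scaling.

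Over both knockdowns together, 16 of the 36 members fell and 1 rose. The members that fell were FABP1, the carnitine acyltransferases CPT1A, CRAT and CROT, the mitochondrial enzymes HADH, ACAA2 and ETFDH and the flavoprotein subunit ETFB, the double-bond enzymes ECI2 and DECR2, the peroxisomal enzymes EHHADH, HSD17B4, ACAA1, PHYH and PECR, and the ketone enzyme BDH1. ACSL1 rose. In RNA from whole cultures, fewer cells of a type and less RNA per cell cannot be told apart. The share that fell was 44.4%, where 17.9% of all tested genes fell. The share that rose was 2.78%, where 14.7% of all tested genes rose. Since the members were chosen with earlier results of these data known, these shares are a description and not a test. The median log2 difference was -0.30 over the members and -0.01 over all tested genes. Of the 16, FABP1, CROT, ACAA1, PECR and BDH1 were lower by 2-fold or more. All 6 knockdown arrays lay below all 3 controls for 11 of the 36 members, where 11.2% of all tested genes did so. They lay above all 3 controls for 1 of the 36, ACSL1, where 9.76% of all tested genes did so. With the deposited signals not scaled again, 19 members fell and 6 rose, and all 17 calls held. In that setting 2778 of all 13056 tested genes fell and 2718 rose. ACSL4, ACSL5, HADHB, ACAT1 and ECI1 were then also called higher, as they were with quantile normalization. Without control replicate 3, 15 members fell and 5 rose, where 1838 of 12880 tested genes fell and 2586 rose.

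In knockdown1 against control, 16 members (44.4%) fell and 2 (5.56%) rose, where 19% of all tested genes fell and 14.3% rose. In knockdown2 against control, 13 members (36.1%) fell and 3 (8.33%) rose, where 13.9% of all tested genes fell and 13.7% rose. The median log2 difference over the members was -0.36 in knockdown1 and -0.21 in knockdown2, beside -0.01 and 0.01 over all tested genes. Unscaled, the numbers that fell and rose were 17 and 8 in knockdown1 and 19 and 7 in knockdown2. Over all 13056 tested genes they were then 2628 and 3105 in knockdown1 and 2607 and 2275 in knockdown2. The share of members that rose unscaled was thus near that of all genes. Without control replicate 3, 12 members fell and 4 rose in knockdown1, and 11 fell and 7 rose in knockdown2. Over the 12880 genes tested without it, 2108 fell and 2496 rose in knockdown1, and 1498 and 2534 in knockdown2. Without control replicate 1 or 2 or any knockdown2 array only 1 member rose in knockdown2, where 1367 to 1419 of all tested genes rose. The 2 comparisons share the 3 controls, so they are not separate evidence for each other. FABP1, CPT1A, CROT, ACAA2, ECI2, EHHADH, HSD17B4, ACAA1, PECR and BDH1 were called lower in both, and ACSL1 was called higher in both. The rest of the calls were made in 1 knockdown, which does not show that the knockdowns differ, and the direct test between them is given further on.

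**Figure D1:**
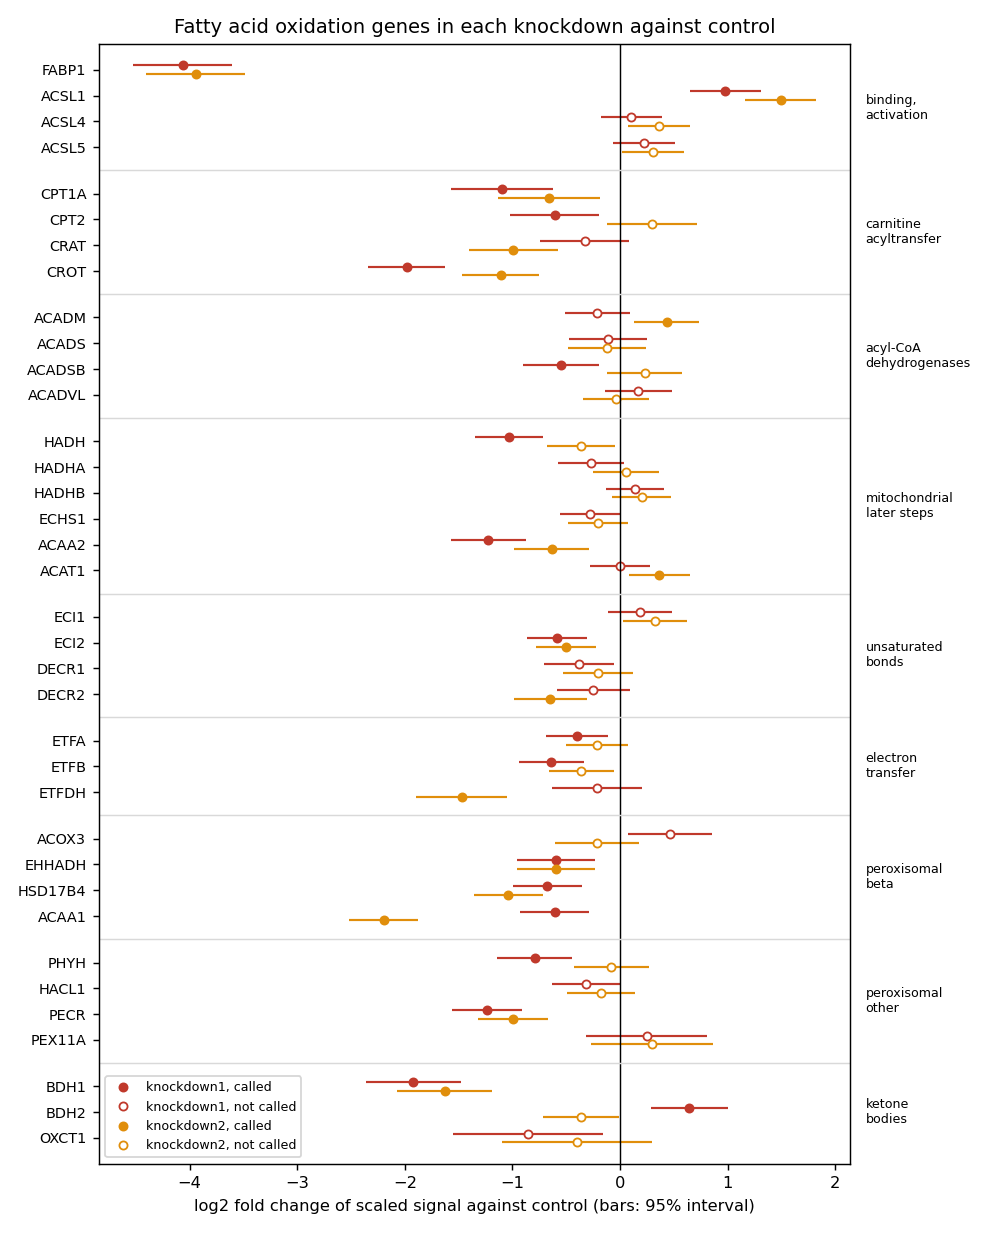
Log2 fold change of scaled signal for the 36 tested members in knockdown1 (red, upper of each pair) and knockdown2 (orange, lower) against control, grouped by role, with 95% intervals and filled points where limma's adjusted p was under 0.05. FABP1 lies near -4 in both knockdowns, and ACSL1 is the only member filled to the right of 0 in both.

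Among the genes of binding and activation, FABP1 stood at the low end and ACSL1 at the high end of all members. FABP1 encodes the liver fatty acid-binding protein, which carries long-chain fatty acids in the hepatocyte cytosol. Its scaled signal was 69.0, 97.3 and 136 in knockdown1, 67.7, 138 and 126 in knockdown2, and 1475, 1450.4 and 2082 in control. The knockdown arrays did not approach the controls, and the mean was 6.04% of the control mean in knockdown1 and 6.62% in knockdown2. The log2 difference was -4.00 (SE 0.19, limma adjusted p = 8.58e-15) over both knockdowns, -4.06 in knockdown1 and -3.94 in knockdown2. A dimmer FABP1 probe set fell by 2.15 on the log2 scale, with the same direction in both knockdowns (p-values of further probe sets were adjusted over all kept probe sets).

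ACSL1 encodes the main long-chain acyl-CoA synthetase of hepatocytes, which joins fatty acids to coenzyme A. It read 496, 391 and 475 in knockdown1, 689.6, 618 and 631 in knockdown2, and 224, 182 and 291 in control. Every knockdown array was above every control, and the mean was 195% of the control mean in knockdown1 and 278% in knockdown2. The log2 difference was 0.98 (SE 0.16, limma adjusted p = 1.98e-05) in knockdown1 and 1.49 (SE 0.16, limma adjusted p = 4.17e-08) in knockdown2. A further ACSL1 probe set rose by 1.18 on the log2 scale over both knockdowns. ACSL4, a synthetase that prefers arachidonic acid, differed by 0.23 (SE 0.12, limma adjusted p = 0.144), and a dimmer probe set of ACSL4 gave -0.56 (adjusted p = 0.04), so its direction depended on the probe set. ACSL5, a synthetase of mitochondria and endoplasmic reticulum, differed by 0.26 (SE 0.12, limma adjusted p = 0.1). A second ACSL5 probe set gave -0.11 (limma adjusted p = 0.54), so its direction also depended on the probe set.

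**Figure D2:**
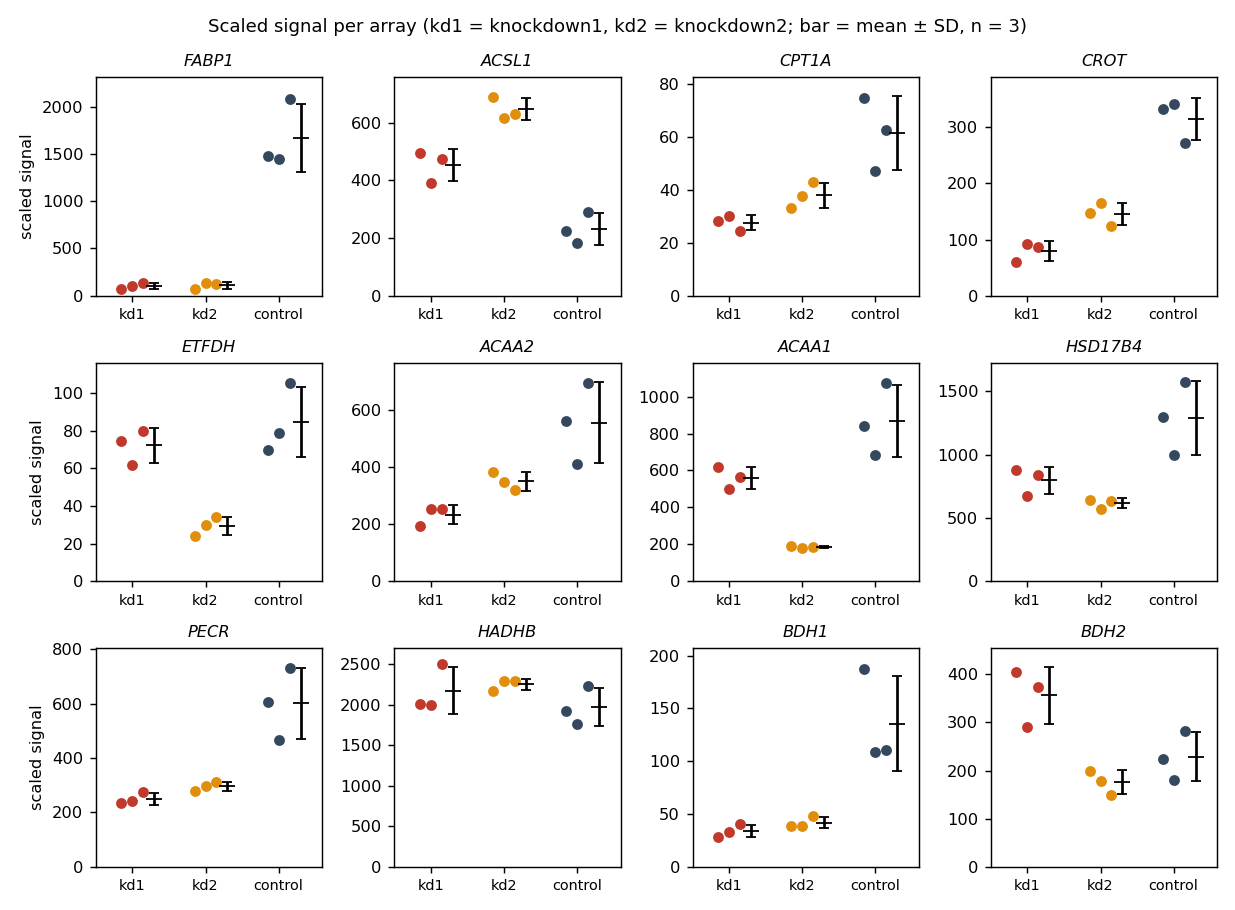
Scaled signal (linear, arbitrary units, axis from 0) of 12 members on each of the 9 arrays, 3 per group, in knockdown1 (kd1), knockdown2 (kd2) and control, with the mean ± SD beside each group. FABP1, CROT, PECR and BDH1 sit below the controls on all 6 knockdown arrays, ACSL1 sits above them, and ACAA1 and ETFDH are lowest in knockdown2.

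Of the 4 carnitine acyltransferases, CPT1A, CRAT and CROT fell over both knockdowns, and CPT2 was not called. CPT1A, the outer-membrane palmitoyltransferase that sets the rate of entry into mitochondria in liver, read 28.4, 30.2 and 24.3 in knockdown1, 33.3, 37.5 and 42.8 in knockdown2, and 74.8, 47.1 and 62.6 in control. All knockdown arrays lay below the lowest control, and the log2 difference was -0.88 (SE 0.20, limma adjusted p = 0.000962). In knockdown2 alone it fell by 0.66 (limma adjusted p = 0.0313), a call that was lost without knockdown2 replicate 1 or 2, without control replicate 1 or 3, and without the filter on dim signals (adjusted p 0.0641 to 0.19). CROT, the peroxisomal carnitine octanoyltransferase, which makes medium-chain products ready for export to mitochondria, read 59.9, 93.0 and 86.0 in knockdown1, 147, 164 and 124 in knockdown2, and 333, 341 and 271 in control. The 3 groups did not overlap, with knockdown1 at the bottom and control at the top, and the mean was 25.3% of the control mean in knockdown1 and 46.1% in knockdown2. Its log2 difference was -1.55 (SE 0.15, limma adjusted p = 4.49e-09) over both knockdowns, while a much dimmer CROT probe set gave 0.20 (limma adjusted p = 0.621).

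CRAT, the carnitine acetyltransferase of short chains, read 90.9, 63.8 and 70.9 in knockdown1, 56.9, 43.8 and 40.2 in knockdown2, and 105, 72.0 and 109 in control. The knockdown2 arrays lay below the controls and the knockdown1 arrays overlapped them. It fell by 0.99 in knockdown2 (SE 0.20, limma adjusted p = 0.000384), and differed by -0.33 (SE 0.20, limma adjusted p = 0.227) in knockdown1. A dimmer CRAT probe set fell by 1.59 in knockdown1 and fell by 1.53 in knockdown2, so the size in knockdown1 depended on the probe set. CPT2, which turns acylcarnitines back to acyl-CoA inside mitochondria, read 57.5, 90.6 and 63.4 in knockdown1, 133, 139 and 120.5 in knockdown2, and 77.4, 104 and 148 in control. The knockdown1 arrays reached the lowest control and the knockdown2 arrays lay within the controls. Its fall in knockdown1 (-0.61, SE 0.20, limma adjusted p = 0.0206) was lost with signals as deposited, with all genes unfiltered, with the mean over probe sets, and without knockdown1 replicate 1 or 3 or control replicate 3 (-0.37 without that control, adjusted p = 0.147). In knockdown2 CPT2 differed by 0.30 (SE 0.20, limma adjusted p = 0.305). A second CPT2 probe set gave 0.02 in knockdown1 (limma adjusted p = 0.957).

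The acyl-CoA dehydrogenases, which take the first step of mitochondrial beta-oxidation for chains of different lengths, gave 0 calls by limma among 4 members over both knockdowns, and the unadjusted p was under 0.05 for 0 of the 4. ACADM, the medium-chain enzyme, read 870.3, 829 and 906 in knockdown1, 1326, 1456 and 1293 in knockdown2, and 879.7, 882 and 1304 in control. The knockdown1 arrays were near the lower controls and the knockdown2 arrays near the highest. It rose by 0.43 in knockdown2 (SE 0.15, limma adjusted p = 0.0278), a call lost on leaving out any knockdown2 array or control replicate 1 or 2. ACADSB, which acts on short branched chains from isoleucine, read 576, 535 and 657 in knockdown1, 1011, 996 and 1009 in knockdown2, and 906, 597 and 1165 in control. Replicates 1 and 2 of knockdown1 lay below the lowest control, and knockdown2 lay within the range of the controls. Its fall in knockdown1 (-0.55, SE 0.17, limma adjusted p = 0.0142) was lost without knockdown1 replicate 2 or control replicate 1 or 3. A second ACADSB probe set gave -0.24 in knockdown1 (limma adjusted p = 0.229) and 0.47 in knockdown2 (limma adjusted p = 0.0182). The calls of ACADSB against control thus depended on the probe set. ACADS, the short-chain enzyme, differed by -0.12 (SE 0.15, limma adjusted p = 0.613). ACADVL, the very long-chain enzyme of the inner membrane, differed by 0.07 (SE 0.13, limma adjusted p = 0.752).

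In the later steps of the mitochondrial cycle, HADH and ACAA2 fell and the other 4 members were not called over both knockdowns. HADH, the 3-hydroxyacyl-CoA dehydrogenase for short and medium chains, read 147, 169 and 176 in knockdown1, 233, 299.9 and 253 in knockdown2, and 346, 291 and 373 in control. The knockdown1 arrays were the lowest and did not overlap the other groups, and 1 knockdown2 array reached the lowest control. HADH fell by 1.03 in knockdown1 (SE 0.15, limma adjusted p = 5.63e-06) and differed by -0.36 (SE 0.15, limma adjusted p = 0.0844) in knockdown2. ACAA2, the mitochondrial thiolase that releases acetyl-CoA, read 194, 253 and 253 in knockdown1, 384, 349 and 318 in knockdown2, and 562, 411 and 693 in control. All 6 knockdown arrays lay below the controls, with knockdown1 the lower, and the log2 difference was -0.93 (SE 0.15, limma adjusted p = 1.31e-05). Both further HADH probe sets and both further ACAA2 probe sets also gave lower values over both knockdowns. In knockdown2 the further HADH probe sets gave -0.53 (limma adjusted p = 0.0105) and -0.16 (limma adjusted p = 0.503), so the call of HADH there depended on the probe set. The brightest was called in knockdown2 with signals as deposited, quantile normalization and the replicate block (limma adjusted p 0.0106 to 0.046).

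HADHA and HADHB, the alpha and beta subunits of the trifunctional protein, differed by -0.11 (SE 0.13, limma adjusted p = 0.586) and by 0.17 (SE 0.11, limma adjusted p = 0.282). HADHB read 2004, 1998 and 2502 in knockdown1, 2173, 2284 and 2291 in knockdown2, and 1914, 1759.7 and 2223 in control, and the groups overlapped. A HADHA probe set of lower mean signal gave -0.47 (limma adjusted p = 0.0215) where the brightest gave -0.11, so the value for HADHA depended on the probe set. ECHS1, the enoyl-CoA hydratase, differed by -0.24 (SE 0.12, limma adjusted p = 0.123). ACAT1, the mitochondrial acetoacetyl-CoA thiolase of ketone and isoleucine metabolism, differed by 0.18 (SE 0.12, limma adjusted p = 0.259). Its rise in knockdown2 (0.37, SE 0.14, limma adjusted p = 0.0454) was lost on leaving out any knockdown2 array, control replicate 1 or 2, or knockdown1 replicate 1.

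Of the 4 enzymes that handle double bonds of unsaturated chains, ECI2 and DECR2 fell. ECI2, an enoyl-CoA isomerase of mitochondria and peroxisomes, read 1389.8, 1585 and 1921 in knockdown1, 1530.3, 1766 and 1868 in knockdown2, and 2511, 2281 and 2488 in control. Every knockdown array was below every control, and the log2 difference was -0.54 (SE 0.12, limma adjusted p = 0.000649). The call of ECI2 in knockdown2 alone was lost without knockdown2 replicate 1 (adjusted p = 0.0637). DECR2, the peroxisomal dienoyl-CoA reductase, read 254, 169 and 251 in knockdown1, 182, 145 and 176 in knockdown2, and 264, 247 and 277 in control. Replicate 2 of knockdown1 lay among the knockdown2 arrays, and its other arrays lay among the controls. The fall over both knockdowns (-0.45, SE 0.14, limma adjusted p = 0.0166) was lost without knockdown1 replicate 2, knockdown2 replicate 2 or control replicate 1 (adjusted p 0.0502 to 0.0598). ECI1, the mitochondrial isomerase, differed by 0.25 (SE 0.13, limma adjusted p = 0.126), and DECR1, the mitochondrial dienoyl-CoA reductase, by -0.29 (SE 0.14, limma adjusted p = 0.102).

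The electron-transfer flavoprotein takes electrons from the acyl-CoA dehydrogenases and hands them to ETFDH, an inner-membrane enzyme that reduces ubiquinone. ETFDH read 74.5, 62.1 and 80.0 in knockdown1, 24.3, 30.1 and 34.1 in knockdown2, and 70.0, 78.8 and 106 in control. The knockdown2 arrays lay far under both other groups, which overlapped, and the mean was 85.1% of the control mean in knockdown1 and 34.8% in knockdown2. ETFDH fell by 1.47 in knockdown2 (SE 0.20, limma adjusted p = 2.61e-06) and differed by -0.21 (SE 0.20, limma adjusted p = 0.464) in knockdown1. The second ETFDH probe set gave -1.42 in knockdown2 and 0.01 in knockdown1. The flavoprotein subunit ETFB fell over both knockdowns (-0.50, SE 0.13, limma adjusted p = 0.00306), and the subunit ETFA differed by -0.31 (SE 0.12, limma adjusted p = 0.0547). ETFB was called in knockdown1 at -0.64 and was -0.36 in knockdown2 (adjusted p = 0.0722). With signals as deposited and with quantile normalization, ETFB and ETFA were both called lower in knockdown2, and with the replicate block ETFB was. The call of ETFA in knockdown1 (-0.40, SE 0.14, limma adjusted p = 0.0281) was lost without knockdown1 replicate 1 or 2 or control replicate 1 or 3, and when only these 2 groups were fitted.

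Peroxisomal beta-oxidation had 3 of 4 members lower over both knockdowns, and ACOX3 was not called. ACAA1, the peroxisomal thiolase, read 618, 501 and 563 in knockdown1, 189, 182 and 185 in knockdown2, and 844, 684 and 1072 in control. The 3 groups did not overlap, with knockdown2 at the bottom, and the mean was 64.7% of the control mean in knockdown1 and 21.4% in knockdown2. ACAA1 fell by 0.61 in knockdown1 (SE 0.16, limma adjusted p = 0.00309) and fell by 2.19 in knockdown2 (SE 0.16, limma adjusted p = 2.12e-11). The second ACAA1 probe set gave -0.51 in knockdown1 and -1.11 in knockdown2.

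HSD17B4, the D-bifunctional protein that hydrates and dehydrogenates peroxisomal enoyl-CoA, read 880.4, 676 and 836 in knockdown1, 643, 573 and 637 in knockdown2, and 1295, 997 and 1574 in control. All 6 knockdown arrays lay below the controls, and the log2 difference was -0.86 (SE 0.13, limma adjusted p = 1.17e-05). EHHADH, the L-bifunctional enzyme of the same steps, read 79.3, 86.3 and 101 in knockdown1, 76.9, 91.4 and 97.6 in knockdown2, and 124, 113 and 172 in control. Its knockdown arrays spread evenly over both groups below the controls, with a log2 difference of -0.59 (SE 0.15, limma adjusted p = 0.0034). The calls of EHHADH in each knockdown alone were lost without control replicate 3 or without replicate 1 of that knockdown (adjusted p 0.0527 to 0.0761). ACOX3, an acyl-CoA oxidase for branched chains, differed by 0.13 (SE 0.16, limma adjusted p = 0.614) over both, with 0.46 (SE 0.19, limma adjusted p = 0.062) in knockdown1 and -0.21 (SE 0.19, limma adjusted p = 0.466) in knockdown2.

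Of the other peroxisomal genes, PECR and PHYH fell over both knockdowns, and HACL1 and PEX11A were not called. PECR, an enoyl-CoA reductase of peroxisomes, read 233, 243 and 275 in knockdown1, 280.1, 295 and 312 in knockdown2, and 607, 465 and 729 in control. The knockdown arrays were tightly grouped below the controls, and the mean was 41.6% of the control mean in knockdown1 and 49.3% in knockdown2. The log2 difference was -1.12 (SE 0.14, limma adjusted p = 2.52e-07), and a second PECR probe set fell by 0.49. PHYH, the hydroxylase that starts alpha-oxidation of phytanic acid, read 390.1, 314 and 421 in knockdown1, 624, 619.8 and 587 in knockdown2, and 608, 497 and 891 in control. The knockdown1 arrays lay below the lowest control and the knockdown2 arrays lay among the controls. PHYH fell by 0.79 in knockdown1 (SE 0.17, limma adjusted p = 0.000542) and differed by -0.08 (SE 0.17, limma adjusted p = 0.782) in knockdown2. Its fall over both knockdowns (-0.44, SE 0.15, limma adjusted p = 0.0229) was -0.21 without control replicate 3 (adjusted p = 0.228), was lost without knockdown1 replicate 2 (adjusted p = 0.0543), and did not pass without the filter on dim signals (adjusted p = 0.0542). HACL1, the lyase of alpha-oxidation, differed by -0.24 (SE 0.13, limma adjusted p = 0.173). PEX11A, a membrane protein of peroxisome division, differed by 0.27 (SE 0.24, limma adjusted p = 0.423).

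Among the ketone body genes, BDH1 fell. BDH1 encodes the mitochondrial dehydrogenase that turns acetoacetate into 3-hydroxybutyrate. It read 28.3, 33.0 and 40.4 in knockdown1, 38.7, 38.7 and 47.7 in knockdown2, and 187, 109 and 110.4 in control. All 6 knockdown arrays lay far under the lowest control, and the mean was 25.0% of the control mean in knockdown1 and 30.7% in knockdown2. The log2 difference was -1.78 (SE 0.19, limma adjusted p = 1.87e-08) over both knockdowns. BDH2, a cytosolic dehydrogenase, read 405, 291 and 373 in knockdown1, 199.8, 179 and 149.5 in knockdown2, and 225, 180.2 and 282 in control. The knockdown1 arrays were above all controls, and the knockdown2 arrays lay around and below the lowest control. BDH2 rose by 0.65 in knockdown1 (SE 0.17, limma adjusted p = 0.00443) and differed by -0.36 (SE 0.17, limma adjusted p = 0.126) in knockdown2. OXCT1, the transferase that tissues use to burn ketone bodies and that hepatocytes hold at low levels, averaged 18.3 ± 7.15 in knockdown1, 24.8 ± 6.78 in knockdown2 and 33.0 ± 8.55 in control (SD, n = 3 each), with 1 knockdown1 array below the array median. It differed by -0.63 (SE 0.29, limma adjusted p = 0.106).

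A further 6 members gave no tested value. ACADL, the long-chain acyl-CoA dehydrogenase, had 2 probe sets with 0 of 18 values above the array median (scaled signals 0.726 to 8.94). PDK4, the kinase that shuts pyruvate dehydrogenase in fasting, had 3 probe sets with 0 of 27 values above it (0.522 to 9.63). ACSL3, a long-chain acyl-CoA synthetase, and SCP2, which holds a peroxisomal thiolase and a lipid carrier, had no probe set annotated to them alone. ACOT1 and ACOT2, the cytosolic and mitochondrial acyl-CoA thioesterases, shared a probe set with each other, and these 4 genes were not analysed here. Of the tested members, 18 genes had 24 further probe sets past the filter. Over both knockdowns 17 of these had the sign of the brightest probe set, 7 had the opposite sign, and in 0 cases were both probe sets called in opposite directions.

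Set directly against each other, the knockdowns differed in 14 members. Knockdown1 was lower than knockdown2 for 9 members (25%), where 16.1% of all tested genes were lower. It was higher for 5 members (13.9%), where 10.5% of all tested genes were higher. The median difference, knockdown1 minus knockdown2, was -0.16 over the members and -0.03 over all tested genes. With signals as deposited the median over all tested genes was 0.08, and 9 members were lower and 8 higher. Of all 13056 tested genes 2104 were then lower and 2803 higher, so the share of members that was higher was near that of all genes. ACAA1, ETFDH and BDH2 differed by 2-fold or more, and all 3 were higher in knockdown1 than in knockdown2.

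ACAA1 differed by 1.59 (SE 0.16, limma adjusted p = 6.87e-09), with a 95% interval of 1.26 to 1.91, and its second probe set by 0.60. ETFDH differed by 1.26 (SE 0.20, limma adjusted p = 2.4e-05), and its second probe set by 1.43. BDH2 differed by 1.01 (SE 0.17, limma adjusted p = 5.14e-05). These 3 were the members in which the knockdowns stood furthest apart. ACOX3 was higher in knockdown1 (0.67, SE 0.19, limma adjusted p = 0.00849), a call lost without knockdown1 replicate 3. CRAT was also higher in knockdown1 (0.66, SE 0.20, limma adjusted p = 0.0139), but the mean over its probe sets gave 0.30 (adjusted p = 0.319). The call of CRAT was also lost without knockdown1 replicate 1 or knockdown2 replicate 3.

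The 9 members lower in knockdown1 than in knockdown2 were CPT2, ACADM, ACADSB, HADH, ACAA2, ACAT1, CROT, PHYH and ACSL1. CPT2 differed by -0.90 (SE 0.20, limma adjusted p = 0.00112), ACADM by -0.64 (SE 0.15, limma adjusted p = 0.00145) and ACADSB by -0.77 (SE 0.17, limma adjusted p = 0.00102). A second CPT2 probe set gave only -0.22 (limma adjusted p = 0.526), so the difference in CPT2 depended on the probe set. A second ACADSB probe set gave -0.71 (limma adjusted p = 0.000864). HADH differed by -0.67 (SE 0.15, limma adjusted p = 0.00162) and ACAA2 by -0.59 (SE 0.17, limma adjusted p = 0.01). The call of ACAA2 was lost without replicate 1 of either knockdown, and that of ACAT1 (-0.37, SE 0.14, limma adjusted p = 0.0469) was lost on leaving out control replicate 1 or any knockdown array other than knockdown1 replicate 3. CROT and PHYH, both peroxisomal, differed by -0.87 (SE 0.17, limma adjusted p = 0.000325) and by -0.71 (SE 0.17, limma adjusted p = 0.00221), and the mean over the CROT probe sets gave -0.31 (adjusted p = 0.232). ACSL1 was lower in knockdown1 than in knockdown2 (-0.51, SE 0.16, limma adjusted p = 0.0176), and that call was lost without knockdown1 replicate 2 or knockdown2 replicate 1.

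Of the 5 members lower by 2-fold or more over both knockdowns, FABP1, BDH1 and PECR were not called between them. FABP1 differed by -0.12 between the knockdowns (95% interval -0.58 to 0.34), BDH1 by -0.29 (95% interval -0.74 to 0.15) and PECR by -0.24 (95% interval -0.57 to 0.08). EHHADH differed by 0.00 (95% interval -0.36 to 0.37). DECR2, called in knockdown2 alone, differed by 0.40 (SE 0.17, limma adjusted p = 0.0752). ETFA and ETFB, called in knockdown1 alone, differed by -0.19 (SE 0.14, limma adjusted p = 0.362) and by -0.28 (SE 0.15, limma adjusted p = 0.171). None of these 3 was called between the knockdowns in the main fit. DECR2 was called between them with signals as deposited, quantile normalization and the replicate block (0.52, 0.50 and 0.40, limma adjusted p = 0.00627, 0.00802 and 0.023). The 7 proliferation markers were all lower in knockdown1 than in knockdown2, with a median log2 difference of -1.56, and their part in the differences between the knockdowns was not tested.

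**Figure D3:**
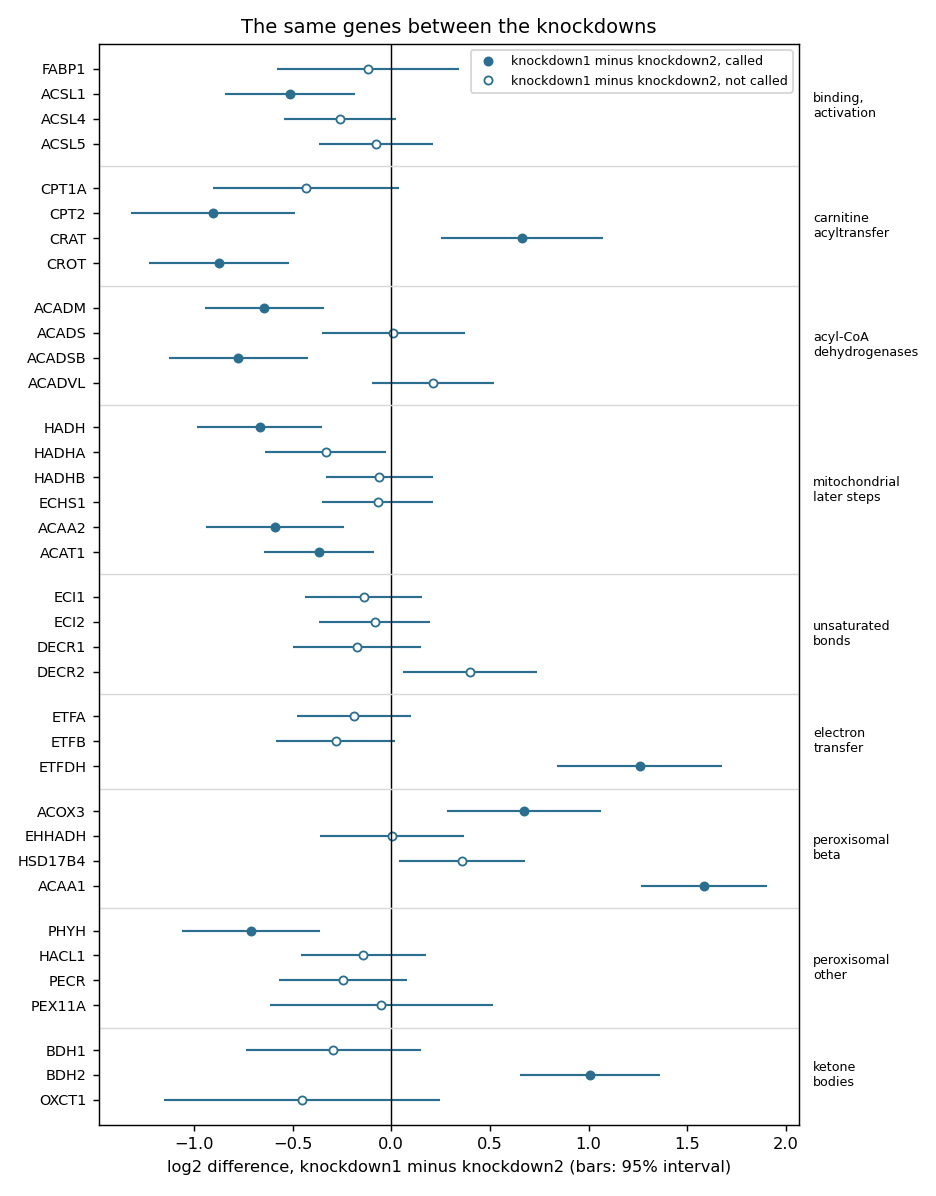
Log2 difference of scaled signal, knockdown1 minus knockdown2, for the 36 tested members by role, with 95% intervals and filled points where limma's adjusted p was under 0.05. ACAA1, ETFDH and BDH2 lie at or beyond 1 to the right, and 9 members with filled points, CPT2 and CROT the furthest, lie to the left of 0.

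Other genes of the same pathways were taken from lists of 121 further genes, of which 81 were tested. Over both knockdowns 29 of them fell and 10 rose, with 27 and 10 in knockdown1 and 23 and 13 in knockdown2. Over all tested genes 17.9% fell and 14.7% rose over both knockdowns, 19% and 14.3% in knockdown1, and 13.9% and 13.7% in knockdown2, so the number that rose among the 81 was near that of all genes. Among 15 tested genes of uptake, binding and activation, 8 fell over both knockdowns and the other 7 were not called. In knockdown1 8 fell and 1 rose, and in knockdown2 7 fell and 0 rose. CD36, not called over both, rose by 0.56 in knockdown1 (limma adjusted p = 0.0182) and fell by 1.09 in knockdown2 (limma adjusted p = 3.69e-05). FABP5 and SLC27A5, counted as fallen, were -1.93 and -1.21 in knockdown1. In knockdown2 they were 0.26 and -0.05 and not called (limma adjusted p = 0.312 and 0.889). FABP3, a fatty acid-binding protein of muscle, fell by 2.08 (SE 0.19, limma adjusted p = 8.66e-10). SLC27A2, an acyl-CoA synthetase for very long chains, fell by 1.65, and ACSS2, which makes acetyl-CoA from acetate in the cytosol, fell by 1.34.

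Among 12 further genes of mitochondrial oxidation, 4 fell and the other 8 were not called. SLC22A5, the carnitine importer of the plasma membrane, fell by 1.00 on the log2 scale, with -1.12 in knockdown1 and -0.87 in knockdown2. SLC25A20, the carnitine-acylcarnitine carrier between CPT1A and CPT2, averaged 206 ± 9.05 in knockdown1, 112 ± 7.74 in knockdown2 and 215 ± 14.5 in control (SD, n = 3 each). It was -0.06 in knockdown1 (limma adjusted p = 0.81) and fell by 0.93 in knockdown2 (limma adjusted p = 1.74e-05). Knockdown1 minus knockdown2 was 0.88 for SLC25A20 (limma adjusted p = 4.03e-05). ECH1, a dienoyl-CoA isomerase, fell by 0.60.

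Of 8 further peroxisomal genes, 4 fell and 2 rose. ACOX2, the oxidase of branched chains and bile acid precursors, fell by 1.90 (SE 0.14, limma adjusted p = 2.28e-11), and CAT, the peroxisomal catalase, fell by 0.88. ABCD3, a peroxisomal importer of branched acyl-CoA and bile acid precursors, was opposite. It averaged 1837 ± 184 in knockdown1, 1972 ± 156 in knockdown2 and 759.6 ± 226 in control (SD, n = 3 each), and rose by 1.36 (SE 0.14, limma adjusted p = 8.08e-09). Of 9 peroxins, the proteins that build peroxisomes, PEX3 fell by 0.39 and PEX5 rose by 0.51, and the other 7 were not called. Of 3 further ketone genes ACAT2, the cytosolic acetoacetyl-CoA thiolase of sterol synthesis, fell by 1.17, and of 4 thioesterases ACOT9 rose by 0.61.

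Regulators moved in both directions. Of 16, 7 fell and 3 rose over both knockdowns, 8 fell and 2 rose in knockdown1, and 5 fell and 6 rose in knockdown2. PPARGC1A, the coactivator that raises oxidation in fasting, averaged 24.2 ± 5.28 in knockdown1, 75.2 ± 5.69 in knockdown2 and 139 ± 18.3 in control (SD, n = 3 each), and fell by 1.67 (limma adjusted p = 8.21e-09). CREB3L3, a hepatic transcription factor of fasting that is also on the list of PPARA targets, fell by 1.56, and its control arrays averaged only 28.6 ± 13.3. PRKAA2, a catalytic subunit of AMP-activated kinase, rose by 1.09 over both knockdowns, with 0.16 in knockdown1 (limma adjusted p = 0.512) and 2.01 in knockdown2 (limma adjusted p = 4.37e-10).

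Of 7 PPARA targets outside oxidation, 2 fell and 2 rose. CIDEC, a lipid-droplet protein, averaged 32.0 ± 4.03 in knockdown1, 30.5 ± 3.95 in knockdown2 and 313 ± 46.6 in control (SD, n = 3 each), and fell by 3.26 (SE 0.16, limma adjusted p = 9.78e-15). TXNIP, an inhibitor of thioredoxin, rose by 1.24. Of 9 genes of the pyruvate dehydrogenase complex and its control, 3 fell and 1 rose. PDP1, the phosphatase that activates the complex, rose by 1.65 (SE 0.16, limma adjusted p = 2.37e-09), while PDK3 and PDK1, kinases that inactivate it, gave -0.62 and -0.58. PDK3 was -1.25 in knockdown1 (limma adjusted p = 0.000117) and 0.01 in knockdown2 (limma adjusted p = 0.979), a called difference of -1.26 between them.

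**Figure D4:**
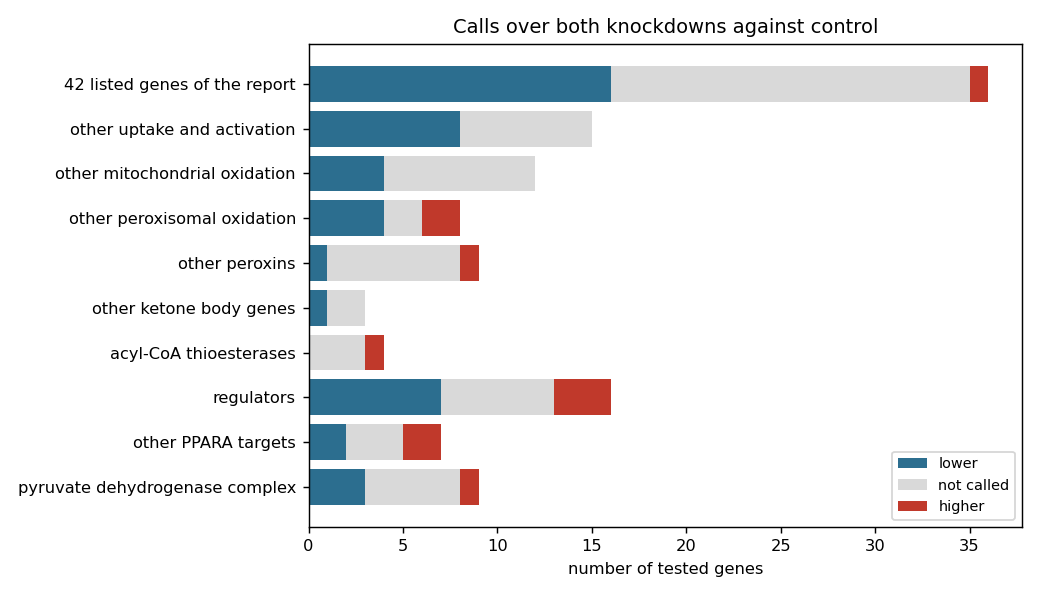
Number of tested genes called lower (blue), not called (grey) and called higher (red) over both knockdowns against control, for the 42 listed genes of which 36 were tested and for 9 lists of further genes. Uptake and activation has 8 of 15 lower and none higher, and regulators have 7 lower and 3 higher of 16.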

How the data were processed

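Expression was measured in 9 HepG2 samples, 3 per group. The deposited values are linear intensities made by the authors with MAS5, per the submitters' processing notes. Its version is not given in the sources used. The trimmed mean of each array was 100.0, and no counts or detection calls were used, so the number of arrays limits the precision. Array medians differed by 1.28 times (12.3 to 15.7), so each array was scaled by 0.898 to 1.15 to a median of 14.1.

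Of 54675 probe sets, 62 were controls, 41091 had 1 gene symbol, 1801 several and 11721 none in the platform annotation. Probe sets with 1 gene and a signal above the array median on at least 3 of 9 arrays were kept (24565), and the brightest of each gene was used (13056 genes). Values were log2(signal + 1.41). All 9 arrays entered 1 fit in limma 3.58.1 (R 4.3.3; lmFit, contrasts.fit, eBayes with variance trend). Tests were two-sided, and p-values were adjusted by Benjamini-Hochberg across the 13056 genes. The fit was tested on simulated data. At most 1.37% of values were identical between arrays of 1 group. Over genes, deviations of same-numbered arrays of different groups correlated at -0.02 to 0.13 (1 of 9 over 0.1). Replicate numbers were therefore not taken to pair arrays, though such correlations do not see a shift of a whole array. Deposited medians in knockdown1, knockdown2 and control were 15, 13.6 and 13.8 for replicate 1. They were 15.7, 13.6 and 15.6 for replicate 2, and 13.5, 13.4 and 12.3 for replicate 3. A shared effect of the number was not tested beyond the replicate block, run as an alternative.

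All 42 members are named, with values per array for called members of large change in each role, and up to 3 called genes per further list. CD36, FABP5 and SLC27A5 are named besides, since their calls against control differed between the knockdowns. The members, lists and naming rule were chosen with earlier results of these data known. Alternatives changed the scaling, pseudocount, filter, probe set rule, variance model, arrays fitted and replicate block, or left out each array. Promoter windows are from RefSeq (GRCh38.p14).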

Additional observations from a re-analysis of the deposited data

Results flagged for a closer look

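In 14 members the response differed between the knockdowns by limma's direct test, given as knockdown1 minus knockdown2 on the log2 scale. Among all tested genes, 16.1% were lower and 10.5% higher in knockdown1 than in knockdown2. The higher values in knockdown1 were 1.59 for ACAA1, 1.26 for ETFDH, 1.01 for BDH2, 0.67 for ACOX3 and 0.66 for CRAT. The lower values in knockdown1 were -0.90 for CPT2, -0.87 for CROT, -0.77 for ACADSB, -0.71 for PHYH, -0.67 for HADH, -0.64 for ACADM, -0.59 for ACAA2, -0.51 for ACSL1 and -0.37 for ACAT1. With 3 arrays per group, single arrays far from their group were not tested for.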

How the results depend on the processing

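Of 2868 values of single members under an alternative, 2664 kept their side of the threshold, 126 gained a call, 78 lost one and 0 calls reversed. Of the 2664, 40 turned sign, all uncalled in both settings. Calls kept under every alternative run were 13 of 17 over both knockdowns, 14 of 18 in knockdown1, 10 of 16 in knockdown2 and 8 of 14 between them. Members called over both knockdowns numbered 26 (20 lower, 6 higher) with quantile normalization. In knockdown2 they numbered 26 with it and 26 with signals as deposited (19 lower, 7 higher in each). With quantile normalization 2829 of all 13056 tested genes were lower and 2731 higher over both knockdowns, and 2635 and 2292 in knockdown2. With signals as deposited 2607 of all tested genes were lower and 2275 higher in knockdown2. Without the variance trend 9 members differed between the knockdowns, where 1639 of all 13056 tested genes were lower and 1053 higher. DECR2 and PHYH over both, CPT2, ACADSB and ETFA in knockdown1, and ACADM, ACAA2 and ACAT1 in knockdown2 then lost their calls. Without the filter on dim signals PHYH over both, CPT2 and ETFA in knockdown1, CPT1A, ACADM and ACAT1 in knockdown2, and CRAT and ACAT1 between the knockdowns lost theirs. Treating the 6 knockdown arrays as 1 group left 13 calls, without CRAT, DECR2, ETFDH and PHYH. Of all 13056 tested genes 1165 were then lower and 1040 higher. Leaving out 1 array gave 15 to 22 calls over both knockdowns, 16 to 21 in knockdown1, 11 to 18 in knockdown2 and 11 to 16 between them. Of the 12855 to 12915 genes then tested, 1838 to 2773 were lower and 1454 to 2586 higher over both knockdowns. The ranges were 2057 to 2934 and 1380 to 2496 in knockdown1, and 1405 to 2229 and 1367 to 2534 in knockdown2. Between the knockdowns they were 1648 to 2489 and 967 to 1685. With the replicate block 20, 21, 20 and 16 members were called in these comparisons. Over both knockdowns the block gave 2644 lower and 2261 higher of all 13056 tested genes. It gave 2797 and 2199 in knockdown1, 2132 and 2133 in knockdown2, and 2483 and 1664 between them. Of the 9 arrays, 5 deviated most like those of their own number. Fitting only the groups compared does not apply to both knockdowns together. Dim genes such as the member OXCT1, and CREB3L3 and HNF4G outside the set, lie near background, where MAS5 values scatter most.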

Other observations

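The genes whose log2 signals followed FABP1 most closely over the 9 arrays were GCHFR (Pearson r = 0.996), CIDEC (0.994), TRIP13 (0.993), FAM111A (0.992) and SLC13A5 (0.991). These are descriptions over 9 arrays that fall into 3 groups, so they mainly restate the difference between knockdown and control. GCHFR, a regulator of tetrahydrobiopterin synthesis, averaged 113, 104 and 563 in knockdown1, knockdown2 and control. SLC13A5, the citrate importer of hepatocytes, averaged 49.4, 55.9 and 451 in the same groups.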
